A study of Mus musculus with 8 samples.

Results

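The 10 genes described here encode the 3 transforming growth factor beta (TGF-beta) ligands (Tgfb1, Tgfb2 and Tgfb3), their receptors and co-receptors (Tgfbr1, Tgfbr2, Tgfbr3 and Eng) and 3 latent TGF-beta binding proteins (Ltbp1, Ltbp3 and Ltbp4). They were taken by symbol from a table of read counts for 50578 genes in mouse embryonic fibroblasts (MEFs), which are primary connective tissue cells. All 10 were found, and all 10 were among the 15154 genes with enough reads to be tested. The MEFs were wild type, at passage 3 to 5, from C57BL/6J embryos at embryonic day 13.5 whose head, tail, limbs and organs had been removed. A control group, labelled as MEFs with no vehicle named, was compared with MEFs grown in 10 µM carbidopa, an inhibitor of aromatic-L-amino-acid decarboxylase, in 10 µM LY-364947 (written LY-364747 in the labels), an inhibitor of the TGF-beta type I receptor kinase, or in 10 µM CHIR-99021, an inhibitor of the kinase GSK3. The medium was renewed every 3 days, and the duration of treatment before RNA-seq is not given in the sources used here. Each of the 4 groups had 2 libraries, 8 in all. No label says whether libraries came from separate cultures, so p-values measure only the spread between these samples, which may be technical.

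TGF-beta is made as a precursor whose propeptide stays folded around the mature dimer and keeps it from its receptors. Latent TGF-beta binding proteins (LTBPs) attach to that propeptide and carry the complex into the matrix, where integrins and proteases can release the ligand. Released ligand is bound by the type II receptor, which phosphorylates the type I receptor, and the type I kinase phosphorylates SMAD2 and SMAD3. In fibroblasts this pathway is known for driving collagen synthesis and the contractile myofibroblast state.

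The libraries held 15039566 to 20504338 counts, and the coefficient of biological variation was 11.0%. Levels are given as CPM, counts scaled to a common library size, after the TMM step by which edgeR allows for library composition. Fold changes are on the log2 scale with their SE. Adjusted p-values are from edgeR's quasi-likelihood test over all 15154 genes, and a gene is said to have risen or fallen where this p was under 0.05. The treated groups are labelled hepatic-like cells, but the 7 hepatocyte markers looked for summed to 3 reads in each MEF library and 11 to 21 reads in each treated library, 2 of them were at 0 in every library, and none had enough reads to be tested. The 10 fibroblast markers were all detected, at a summed 35112 and 34774 CPM in MEFs and 8130 to 11716 CPM in treated libraries. Fn1 alone was at 19267 and 18682 CPM in MEFs. Fn1, Dcn, Col1a1, Col1a2 and Col3a1 belong to the pathway lists below as well. Under each compound 8 of the 10 fibroblast markers fell and 1 rose, where 17.2% to 20.1% of all genes tested fell and 13.7% to 18.7% rose. The 6 epithelial markers summed to 3.10 and 4.16 CPM in MEFs and 9.82 to 21.4 CPM in treated libraries. Of these, 3 had under 10 reads in every library and only 3 were tested. Of the tested markers 1, 1 and 3 rose under carbidopa, LY-364947 and CHIR-99021. Krt19 was the largest part of each sum, at 2.32 and 3.20 CPM in MEFs and 6.09 to 19.2 CPM in treated libraries. The groups are therefore called here by their compound, and the part of these shifts in the results below was not tested.

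Against MEFs, the genes of this ligand and receptor system did not move as one. All 3 compounds gave a higher level of Tgfb2 (4.41-fold to 5.55-fold) and of Ltbp1 and Ltbp3, and a lower level of Tgfb3, Ltbp4 and the 4 receptor genes. Tgfb1 fell under carbidopa and LY-364947, and its change under CHIR-99021 did not pass the test. With carbidopa, 3 members rose and 7 fell, where 18.0% of all genes tested rose and 19.7% fell (37.7% in either direction). With LY-364947, 3 members rose and 7 fell, where 13.7% of all genes rose and 17.2% fell (31.0% in either direction). With CHIR-99021, 3 members rose, 6 fell and 1 did not pass, where 18.7% of all genes rose and 20.1% fell (38.8% in either direction). The median log2 fold change of the members was -0.68, -0.60 and -0.65 under carbidopa, LY-364947 and CHIR-99021, beside 0.04, 0.03 and 0.04 over all genes tested. The 3 comparisons share the same 2 MEF libraries, so their likeness is in part that of a common reference. The TMM factors were 0.895 and 0.880 in MEFs and 1.03 to 1.06 in treated libraries. Scaling by total counts alone, tried after the data had been seen, moved the median of all genes up to 0.29, 0.25 and 0.26, and the share of calls that were rises from 47.8%, 44.3% and 48.2% to 73.9%, 70.0% and 69.8%. Under it 9, 8 and 9 members were called, with 3 rises in each comparison.

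**Figure D1:**
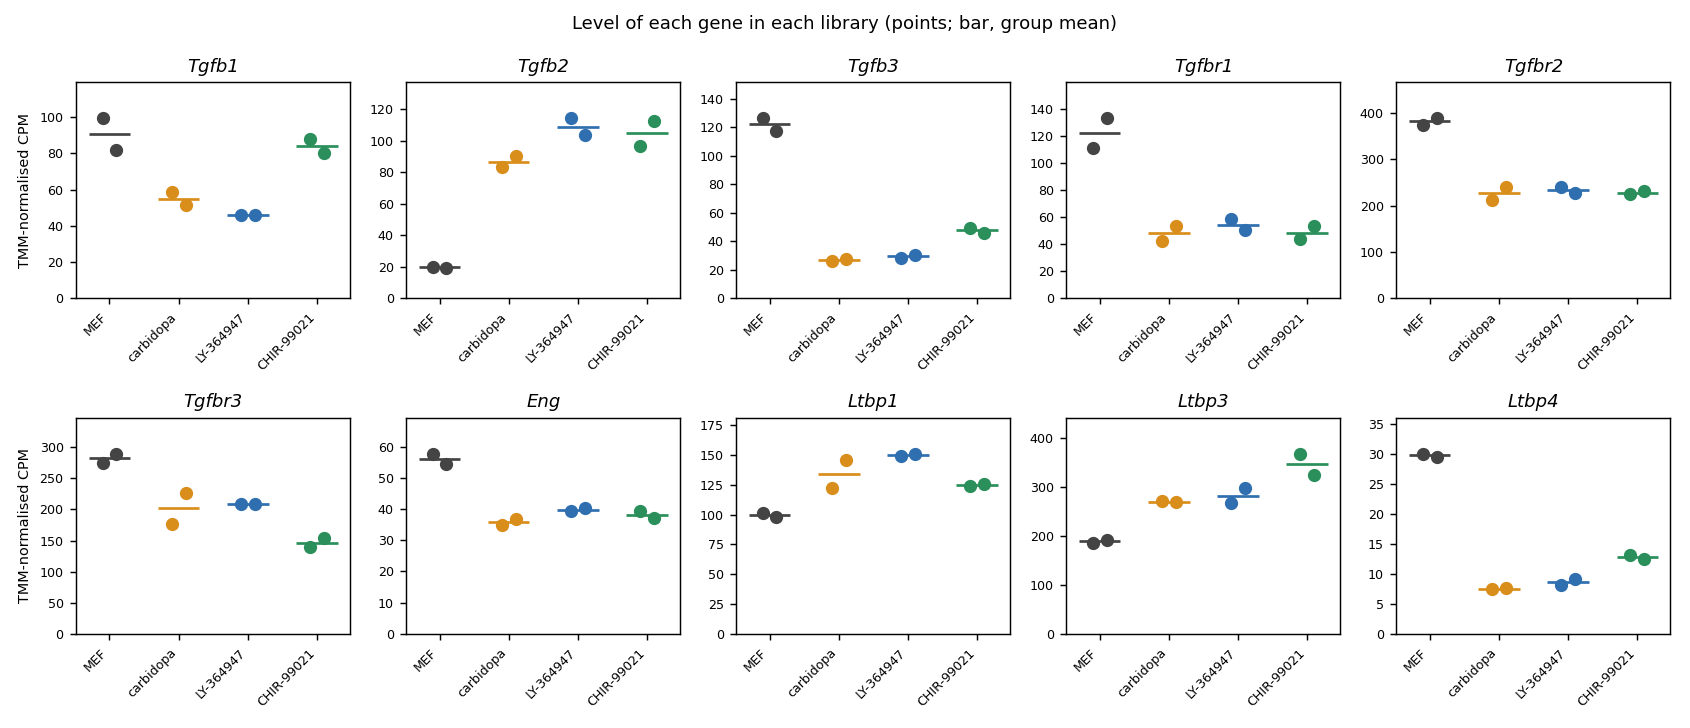
Level of each of the 10 genes in every library, in CPM on linear axes that start at 0, with a panel per gene, 2 points per group and a bar at the group mean. The treated libraries of Tgfb2 (82.9 to 114 CPM) stand far above MEFs (19.4 and 19.9 CPM), and those of Tgfb3 and Ltbp4 far below.

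Tgfb2, the ligand known for its need of a co-receptor for efficient receptor binding, was at 19.9 and 19.4 CPM in MEFs, 82.9 and 90.2 CPM under carbidopa, 114 and 104 CPM under LY-364947 and 96.5 and 112 CPM under CHIR-99021. Every treated library was far above both MEF libraries, and the treated groups overlapped one another in part. The log2 fold change was 2.14 ± 0.12 under carbidopa (adjusted p = 4.4e-07), 2.47 ± 0.12 under LY-364947 (adjusted p = 1.74e-07) and 2.41 ± 0.12 under CHIR-99021 (adjusted p = 1.91e-07). The gene lies on the minus strand of chr1:186622792-186705989 of GRCm38, and 2.14% of its exon bases overlap the antisense gene Gm29491. The authors' strand setting is not given in the sources used here, so reads in such overlaps cannot be assigned to a strand.

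Tgfb3, a ligand known from palate closure and scar-poor healing, went the other way. Its levels were 126 and 118 CPM in MEFs, 26.0 and 27.4 CPM under carbidopa, 28.3 and 30.5 CPM under LY-364947 and 49.5 and 46.1 CPM under CHIR-99021. The groups fell into 3 tiers without overlap, with MEFs highest, CHIR-99021 between, and the other two compounds lowest. Its log2 fold change was -2.19 ± 0.11 under carbidopa (adjusted p = 1.45e-07, 4.57-fold lower), -2.05 ± 0.10 under LY-364947 (adjusted p = 2.29e-07, 4.15-fold lower) and -1.35 ± 0.10 under CHIR-99021 (adjusted p = 3.65e-06, 2.55-fold lower). Tgfb3 lies on the minus strand of chr12:86056745-86079041, and 12.4% of its exon bases are shared with Gm37804 and Gm48008 on the opposite strand, so its count is uncertain to that extent.

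Tgfb1, the ligand of platelets and immune cells that fibroblasts also make, changed least of the ligands. It was at 99.3 and 81.6 CPM in MEFs, 58.5 and 51.3 CPM under carbidopa, 45.7 and 46.2 CPM under LY-364947 and 88.1 and 80.1 CPM under CHIR-99021. The CHIR-99021 libraries lay across the lower MEF library, whereas those of the other compounds lay under both. It fell by 0.72 ± 0.12 on the log2 scale under carbidopa (adjusted p = 0.00115) and by 0.98 ± 0.12 under LY-364947 (adjusted p = 0.000161). With CHIR-99021 the log2 fold change was -0.10 (95% interval -0.37 to 0.17, adjusted p = 0.534), and 0.11 when libraries were scaled by total counts alone. Tgfb1 lies on the plus strand of chr7:25687002-25705077. Markers of macrophages, cells rich in Tgfb1, were present in these cultures: all 16 of 16 were tested, and their sum was 1351 and 1397 CPM in MEFs, 435 and 418 under carbidopa, 313 and 325 under LY-364947 and 105 and 112 under CHIR-99021. Of these markers 15, 15 and 16 fell under carbidopa, LY-364947 and CHIR-99021, where 19.7%, 17.2% and 20.1% of all genes tested fell. Both Tgfb1 and this sum were highest in MEFs, lower under carbidopa and lower again under LY-364947. CHIR-99021 had the lowest sum and the highest Tgfb1 of the treated groups. The part of macrophages in the Tgfb1 values was not tested. In a bulk sample, fewer cells of a type and less RNA per cell cannot be told apart.

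The sequence before the start of each gene is shown for Tgfb1 and Tgfb2, since these ligands responded in opposite ways to carbidopa and LY-364947. The 250 bases come from RefSeq (GRCm38.p6), which gave windows for 8 of the 10 members, and are written 5′ to 3′ on the gene's own strand. Both strands were searched for a GC box, written GGGCGG, which factors of the SP family bind. They were searched for CAGACA, the SMAD binding element, and for TGACGTCA, the cyclic AMP response element. An AP-1 site was looked for as TGAGTCA. The site of the TCF/LEF factors, which act in Wnt signalling, was looked for as ATCAAAG. Capitals mark the matches. The Tgfb1 window is chr7:25686752-25687001, plus strand, and the Tgfb2 window is chr1:186705990-186706239, minus strand.
Tgfb1: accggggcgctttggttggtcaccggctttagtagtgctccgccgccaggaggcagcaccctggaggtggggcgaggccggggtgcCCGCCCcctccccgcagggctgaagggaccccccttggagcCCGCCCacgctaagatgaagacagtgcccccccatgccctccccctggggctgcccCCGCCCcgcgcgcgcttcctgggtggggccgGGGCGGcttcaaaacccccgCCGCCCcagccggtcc
Tgfb2: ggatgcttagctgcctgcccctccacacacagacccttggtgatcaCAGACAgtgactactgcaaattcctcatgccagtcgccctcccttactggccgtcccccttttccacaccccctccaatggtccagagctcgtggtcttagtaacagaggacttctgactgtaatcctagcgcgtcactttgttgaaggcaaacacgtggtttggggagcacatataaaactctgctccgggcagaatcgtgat
The Tgfb1 window held 5 GC boxes, the outermost 164 to 159 bases and the innermost 16 to 11 bases before the start, and none of the other motifs. Of 32851 promoter windows of the same length, 32.7% held a GC box. The Tgfb2 window held 1 SMAD binding element, 204 to 199 bases before the start, as did 17.1% of all windows. A match to such short letters is a description and not evidence of binding.

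Divided by exon length, the ligand levels can be compared with each other. In MEFs, Tgfb3 made up 62.9% ± 1.62 (SD, n = 2) of the summed ligand CPM per kilobase, Tgfb1 31.2% ± 1.96 and Tgfb2 5.91% ± 0.340. Tgfb2 was the leading ligand transcript under carbidopa (44.3% ± 2.40) and LY-364947 (51.3% ± 2.41), where Tgfb3 took 23.4% ± 0.725 and 23.8% ± 1.70. With CHIR-99021 the shares per kilobase were closer to even, at 36.9% ± 3.89 for Tgfb2, 34.1% ± 2.37 for Tgfb1 and 28.9% ± 1.52 for Tgfb3, and the Tgfb2 and Tgfb1 shares did not differ beyond their spread. From raw counts without gene length, its 2 libraries had 41.2% and 47.1% Tgfb2, 37.6% and 33.6% Tgfb1, and 21.2% and 19.3% Tgfb3. The ratio of Tgfb2 to Tgfb3 per kilobase was 0.0918 and 0.0960 in MEFs, 1.86 and 1.92 under carbidopa, 2.35 and 1.99 under LY-364947 and 1.14 and 1.42 under CHIR-99021. Every treated library therefore held more Tgfb2 than Tgfb3 transcript, the reverse of both MEF libraries. The summed ligand level was 57.4 ± 4.33 CPM per kilobase in MEFs, 33.7 ± 0.163 under carbidopa, 36.6 ± 0.763 under LY-364947 and 48.9 ± 0.128 under CHIR-99021. These shares are descriptions, with no test.

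**Figure D2:**
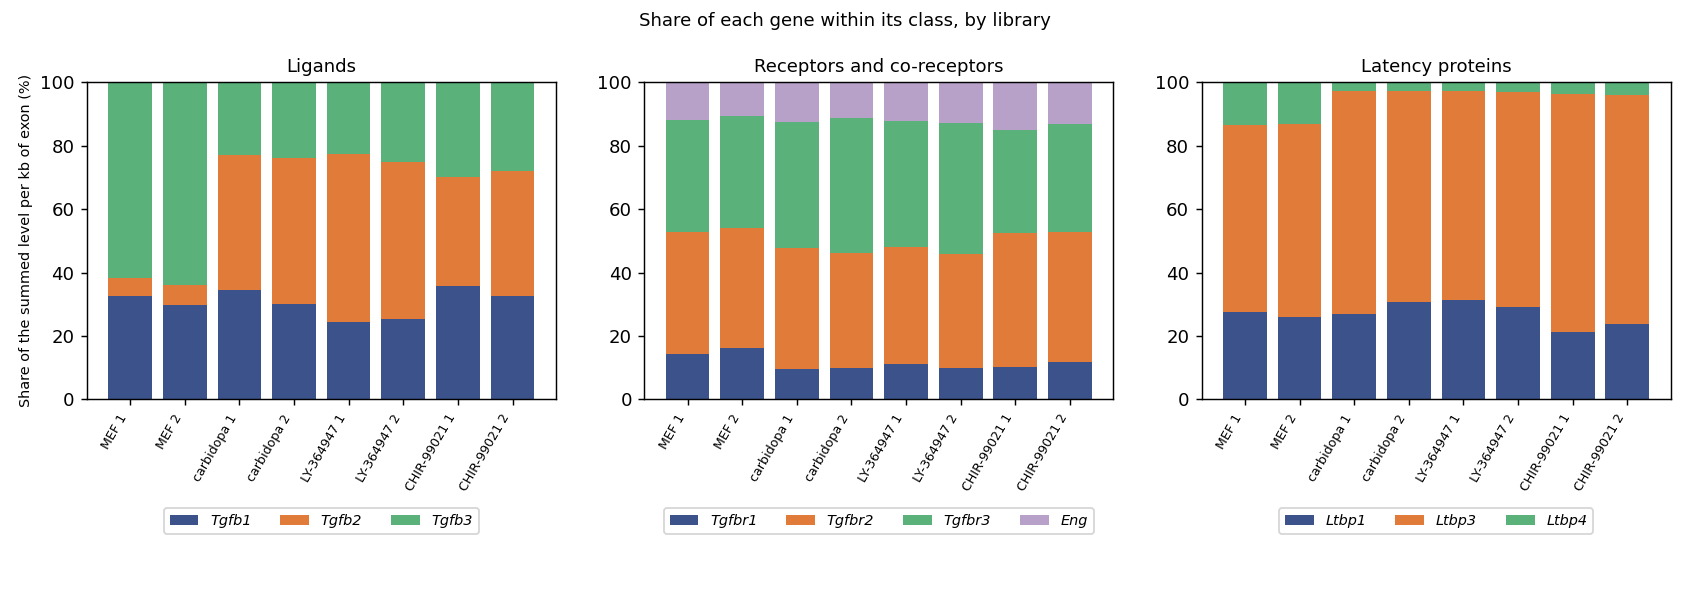
Share of each gene in the summed CPM per kilobase of exon of its class (ligands, receptors and co-receptors, LTBPs), in percent, as 1 stacked bar from 0 to 100 for each of the 8 libraries. The mean Tgfb2 share is 5.91% in MEFs and 36.9% to 51.3% in treated groups, and the mean Ltbp4 share is 13.3% in MEFs and 2.68% to 3.82% in treated groups.

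All 4 receptor genes were lower in each treated group than in MEFs, and Tgfbr1 by most. Tgfbr1, the type I receptor whose kinase LY-364947 blocks, was at 112 and 133 CPM in MEFs, 42.8 and 53.3 CPM under carbidopa, 58.4 and 50.8 CPM under LY-364947 and 43.9 and 53.3 CPM under CHIR-99021. The 6 treated libraries overlapped one another and all lay below both MEF libraries. The log2 fold change was -1.35 (adjusted p = 6.14e-05), -1.17 (adjusted p = 0.000176) and -1.33 (adjusted p = 6.66e-05) in the same order of compounds, each with an SE of 0.15. The gene lies on the plus strand of chr4:47353222-47414931.

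Tgfbr2, the type II receptor that binds ligand first, was at 375 and 388 CPM in MEFs, 213 and 241 CPM under carbidopa, 241 and 228 CPM under LY-364947 and 225 and 231 CPM under CHIR-99021. Treated libraries were alike and all below MEFs. The log2 fold change was -0.75 (adjusted p = 0.000219), -0.70 (adjusted p = 0.000358) and -0.74 (adjusted p = 0.000225), each with an SE of 0.10. The gene lies on the minus strand of chr9:116084293-116175360. The ratio of Tgfbr1 to Tgfbr2 per kilobase was 0.373 and 0.430 in MEFs and 0.245 to 0.303 in the treated libraries.

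Tgfbr3, or betaglycan, is the co-receptor that presents ligand, TGF-beta 2 in particular, to the type II receptor. It was at 275 and 290 CPM in MEFs, 176 and 227 CPM under carbidopa, 209 and 209 CPM under LY-364947 and 139 and 154 CPM under CHIR-99021. The CHIR-99021 libraries were the lowest of all, and the carbidopa libraries were the most spread. The log2 fold change was -0.49 ± 0.13 under carbidopa (adjusted p = 0.0125), -0.43 ± 0.13 under LY-364947 (adjusted p = 0.0237) and -0.95 ± 0.13 under CHIR-99021 (adjusted p = 0.000219). The first 2 of these lost their calls in fits where a group kept 1 library. Without MEF replicate 1 or replicate 2 the carbidopa value was -0.52 and -0.45, not called. The LY-364947 value was -0.47 to -0.40, not called, without any 1 of the 2 MEF and 2 LY-364947 libraries. With scaling by total counts the carbidopa and LY-364947 values were -0.24 (adjusted p = 0.124) and -0.21 (adjusted p = 0.187). Tgfbr3 lies on the minus strand of chr5:107106570-107289629. The gene Gm43422 on the same strand overlaps 4.54% of its exon bases, so its count is uncertain to that extent.

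Eng, or endoglin, is a co-receptor best known from endothelial cells and also found on fibroblasts. It was at 57.9 and 54.4 CPM in MEFs, 34.8 and 36.9 CPM under carbidopa, 39.3 and 40.3 CPM under LY-364947 and 39.4 and 37.1 CPM under CHIR-99021. The treated libraries lay in a narrow band below MEFs. The log2 fold change was -0.65 (adjusted p = 0.000687), -0.50 (adjusted p = 0.00378) and -0.55 (adjusted p = 0.0018), each with an SE of 0.10. In the LY-364947 comparison the adjusted p was 0.0509 without MEF replicate 1 and 0.0596 with scaling by total counts. The gene lies on the plus strand of chr2:32646595-32682669, and 1.51% of its exon bases are shared with Fpgs. Of 9 endothelial markers 5 had under 10 reads in every library and 1 of these was at 0 throughout, while the summed level of the list was 25.5 and 23.7 CPM in MEFs, 11.7 and 12.7 under carbidopa, 12.0 and 15.0 under LY-364947 and 16.3 and 13.8 under CHIR-99021. Eng alone was above this sum in every library, which does not say what cells it came from. The part of endothelial cells in the change of Eng was not tested.

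**Figure D3:**
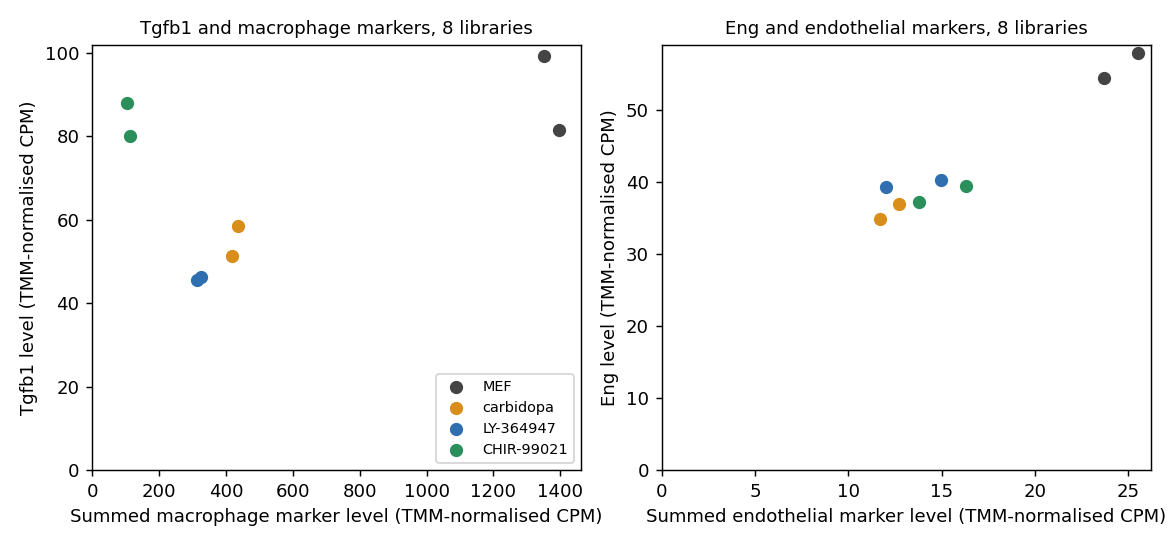
Level of Tgfb1 against the summed macrophage markers (left) and of Eng against the summed endothelial markers (right), in CPM on linear axes from 0, with 1 point per library coloured by group. Tgfb1 and the macrophage sum are both highest in MEFs, lower under carbidopa and lower again under LY-364947. With CHIR-99021 Tgfb1 lies near MEFs and the macrophage sum (105 and 112 CPM) is the lowest. Eng is higher than the endothelial sum in every library.

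The LTBPs divided. Ltbp4, which also assembles elastic fibres, was at 30.0 and 29.5 CPM in MEFs, 7.39 and 7.65 CPM under carbidopa, 8.08 and 9.21 CPM under LY-364947 and 13.1 and 12.5 CPM under CHIR-99021. As for Tgfb3, MEFs were highest, CHIR-99021 was between, and no group overlapped MEFs. Its log2 fold change was -1.98 ± 0.13 under carbidopa (adjusted p = 1.72e-06, 3.95-fold lower), -1.78 ± 0.13 under LY-364947 (adjusted p = 3.79e-06, 3.44-fold lower) and -1.22 ± 0.13 under CHIR-99021 (adjusted p = 4.53e-05, 2.32-fold lower). The gene lies on the minus strand of chr7:27305136-27337692.

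Ltbp3, which carries latent TGF-beta in bone and vessel wall, was at 185 and 193 CPM in MEFs, 272 and 269 CPM under carbidopa, 267 and 298 CPM under LY-364947 and 368 and 325 CPM under CHIR-99021. All treated libraries were above MEFs, and the CHIR-99021 libraries were above all others. The log2 rise was 0.52 ± 0.10 (adjusted p = 0.0033), 0.58 ± 0.10 (adjusted p = 0.00171) and 0.88 ± 0.10 (adjusted p = 9.88e-05) under carbidopa, LY-364947 and CHIR-99021. Ltbp3 lies on the plus strand of chr19:5740904-5758532.

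Ltbp1, the LTBP that deposits latent complexes on fibronectin and fibrillin, was at 101 and 97.6 CPM in MEFs, 122 and 146 CPM under carbidopa, 150 and 151 CPM under LY-364947 and 124 and 126 CPM under CHIR-99021. Every treated library was above both MEF libraries. The log2 rise was 0.43 ± 0.11 (adjusted p = 0.0107), 0.59 ± 0.11 (adjusted p = 0.00174) and 0.33 ± 0.11 (adjusted p = 0.0339). Without MEF replicate 1 or 2, the adjusted p under carbidopa was 0.0643 and 0.11. It was 0.0548 when only carbidopa and MEF libraries were fitted. The rise under CHIR-99021 lost its call when any 1 of the MEF, CHIR-99021 or LY-364947 libraries was left out. Its value was then 0.29 to 0.36. The rise was called neither by DESeq2 (adjusted p = 0.0678) nor by edgeR with RLE size factors (adjusted p = 0.0647). Ltbp1 lies on the plus strand of chr17:75005568-75392512.

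The promoter windows of Ltbp1 and Ltbp3 are shown because these were the LTBPs that rose. The Ltbp1 window is the first of 2 that RefSeq gives, chr17:75005279-75005528, and the Ltbp3 window is chr19:5740650-5740899, both on the plus strand.
Ltbp1: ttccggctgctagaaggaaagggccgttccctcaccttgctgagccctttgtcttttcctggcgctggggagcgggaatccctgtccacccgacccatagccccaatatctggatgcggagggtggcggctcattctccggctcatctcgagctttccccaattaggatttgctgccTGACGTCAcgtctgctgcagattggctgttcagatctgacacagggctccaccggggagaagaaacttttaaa
Ltbp3: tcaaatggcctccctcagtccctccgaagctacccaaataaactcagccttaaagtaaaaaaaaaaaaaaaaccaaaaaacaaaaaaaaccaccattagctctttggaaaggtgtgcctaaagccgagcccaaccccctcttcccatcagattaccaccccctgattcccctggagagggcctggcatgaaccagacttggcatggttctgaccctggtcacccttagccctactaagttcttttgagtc
The capitals in Ltbp1 mark a cyclic AMP response element 73 to 66 bases before the start, which 1.55% of all windows held. The other Ltbp1 window, chr17:75178531-75178780, is not printed and held 2 SMAD binding elements, 149 to 144 and 98 to 93 bases before its start, and none of the other motifs. The Ltbp3 window held none of the 5 motifs. No match says only that these letters are not in this window.

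Per kilobase, Ltbp3 led the LTBPs in every group, with 59.9% ± 1.24 of their sum in MEFs, 68.6% ± 2.64 under carbidopa, 66.9% ± 1.41 under LY-364947 and 73.6% ± 1.82 under CHIR-99021. The Ltbp4 share was 13.3% ± 0.288 in MEFs and 2.68% ± 0.0184, 2.87% ± 0.102 and 3.82% ± 0.104 in the treated groups. The summed level of the LTBPs was higher in treated groups and that of the receptors lower, given here with no test. LTBPs summed to 34.7 ± 0.296 CPM per kilobase in MEFs and to 43.5 ± 1.36, 46.6 ± 2.66 and 51.9 ± 3.28 under carbidopa, LY-364947 and CHIR-99021. Receptors summed to 122 ± 4.43 CPM per kilobase in MEFs and to 74.7 ± 9.42, 78.8 ± 1.90 and 67.2 ± 2.83.

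**Figure D4:**
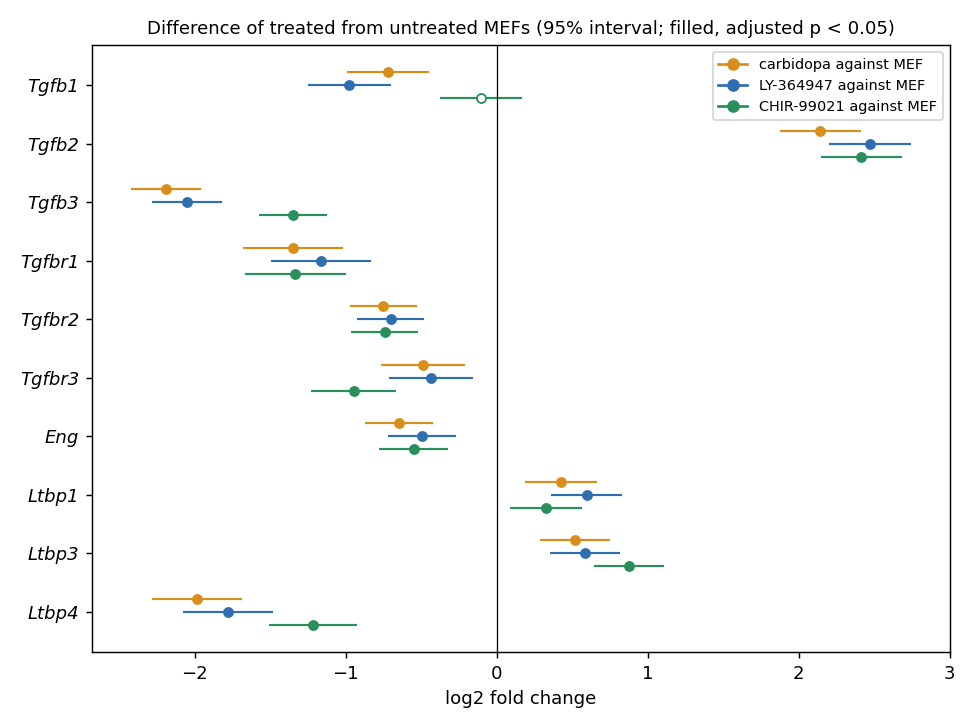
Log2 fold change against MEFs for the 10 genes with 95% intervals, in 1 colour per compound, with filled points for an adjusted p under 0.05. Tgfb2 stands at 2.14 to 2.47, Tgfb3 and Ltbp4 between -2.19 and -1.22, and the only interval of a ligand across 0 is Tgfb1 under CHIR-99021.

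In order of level per kilobase, MEFs ran from Tgfbr2 (46.6 ± 1.15) and Tgfbr3 (43.2 ± 1.54) through Tgfb3 (36.1 ± 1.79), Ltbp3 (20.8 ± 0.608), Tgfbr1 (18.7 ± 2.34), Tgfb1 (17.9 ± 2.48), Eng (13.9 ± 0.605), Ltbp1 (9.31 ± 0.252) and Ltbp4 (4.61 ± 0.0607) to Tgfb2 (3.39 ± 0.0608). Neighbours whose ranges of mean ± SD overlapped were taken as not differing beyond their spread, as was so here for Ltbp3, Tgfbr1 and Tgfb1. Tgfb2, last of the 10 in MEFs, was the fourth in each treated group, at 14.9 ± 0.883 under carbidopa, 18.8 ± 1.27 under LY-364947 and 18.0 ± 1.95 under CHIR-99021. Ltbp4 took the last place there, at 1.16 ± 0.0285, 1.34 ± 0.124 and 1.98 ± 0.0712. The first place went to Tgfbr3 under carbidopa (30.8 ± 5.49) and LY-364947 (31.9 ± 0.0778). With carbidopa Tgfbr3, Ltbp3 (29.8 ± 0.212) and Tgfbr2 (27.7 ± 2.42) did not differ beyond their spread. Under LY-364947 Tgfbr3 and Ltbp3 (31.2 ± 2.43) did not, nor did Ltbp3 and Tgfbr2 (28.6 ± 1.17). Further down, Tgfb3 and Tgfbr1 were within their spread under carbidopa (7.89 ± 0.283 and 7.35 ± 1.13) and under LY-364947 (8.69 ± 0.442 and 8.35 ± 0.819), as were Ltbp1 and Tgfb1 under carbidopa (12.5 ± 1.55 and 10.9 ± 1.00) and Tgfb1 (9.11 ± 0.0675) and Tgfb3 under LY-364947. With CHIR-99021 Ltbp3 led at 38.2 ± 3.36, ahead of Tgfbr2 at 27.9 ± 0.570, and Tgfb2 and Tgfb1 (16.7 ± 1.11) were neighbours within their spread. These are levels on one length-scaled measure, which takes the exons of GENCODE M21 as the length of each gene.

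The compounds were also compared with one another, to see where inhibition of GSK3 differed from the other 2 treatments. CHIR-99021 gave higher Tgfb1, Tgfb3 and Ltbp4 than either carbidopa or LY-364947, and lower Tgfbr3. Against carbidopa 4 members were higher and 1 lower, where 6.62% of all genes were higher and 8.08% lower (14.7% in either direction). Against LY-364947 3 were higher and 1 lower, where 6.45% of all genes were higher and 7.69% lower (14.1% in either direction). Both comparisons use the same CHIR-99021 libraries. The median over the members was 0.18 and -0.05, beside -0.00071 and 0.0059 over all genes.

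Tgfb3 under CHIR-99021 stood higher, with a log2 difference of 0.84 ± 0.10 against carbidopa (adjusted p = 0.000588) and 0.70 ± 0.10 against LY-364947 (adjusted p = 0.00171). Tgfb1 differed by 0.62 ± 0.12 (adjusted p = 0.00808) and 0.87 ± 0.12 (adjusted p = 0.0013), and Ltbp4 by 0.77 ± 0.14 (adjusted p = 0.00474) and 0.56 ± 0.14 (adjusted p = 0.0215). These genes had fallen less under CHIR-99021, or in the case of Tgfb1 had not passed the test. Tgfbr3 differed by -0.46 ± 0.13 (adjusted p = 0.0348) and -0.51 ± 0.13 (adjusted p = 0.0228). Ltbp3 was higher than under carbidopa by 0.36 ± 0.10 (adjusted p = 0.0431), and against LY-364947 its difference was 0.30 (95% interval 0.07 to 0.53, adjusted p = 0.0877). Several of these calls were lost in fits where a group kept 1 library. Without CHIR-99021 replicate 1 the differences from carbidopa were 0.55 for Tgfb1 and 0.73 for Ltbp4, not called. Those of Ltbp3 and Tgfbr3 from carbidopa lost their calls when any 1 of the MEF, CHIR-99021 or LY-364947 libraries was left out (0.27 to 0.45 and -0.53 to -0.38). The same held for Ltbp4 and Tgfbr3 against LY-364947 (0.47 to 0.67 and -0.58 to -0.44). DESeq2 did not call Ltbp4 against LY-364947 (adjusted p = 0.0577). With scaling by total counts Ltbp3 was not called against carbidopa (adjusted p = 0.0665). The number of members called ranged from 1 to 6 against carbidopa and from 2 to 6 against LY-364947 as single libraries were left out, and with only the 2 groups fitted it was 3 against carbidopa and 6 against LY-364947.

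Tgfb2, Tgfbr1, Tgfbr2, Eng and Ltbp1 did not pass in either comparison of CHIR-99021 with another compound. The 95% intervals against carbidopa were 0.03 to 0.52 for Tgfb2, -0.32 to 0.35 for Tgfbr1, -0.21 to 0.23 for Tgfbr2, -0.13 to 0.32 for Eng and -0.34 to 0.13 for Ltbp1. Against LY-364947 they were -0.30 to 0.18 for Tgfb2, -0.50 to 0.17 for Tgfbr1, -0.26 to 0.18 for Tgfbr2, -0.28 to 0.17 for Eng and -0.50 to -0.03 for Ltbp1. The unadjusted interval of Tgfb2 against carbidopa and that of Ltbp1 against LY-364947 lay to one side of 0, with adjusted p-values of 0.131 and 0.125.

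LY-364947 and carbidopa were not told apart by any member. None of the 10 passed edgeR's test, where 2 of 15154 genes did (0.0132%) and 1367 had an unadjusted p under 0.05. The widest differences were 0.33 for Tgfb2 (95% interval 0.09 to 0.57, adjusted p = 0.519) and -0.26 for Tgfb1 (-0.53 to 0.02, adjusted p = 0.519). For the other members the differences ranged from 0.05 to 0.20, with intervals within -0.23 to 0.52. DESeq2 called none of the members either. The carbidopa libraries were the most unlike of any replicate pair, with a chi-square of 34.6 per degree of freedom over genes against 4.31 to 9.21 in the other groups. Without carbidopa replicate 2, 2 members passed, Ltbp1 at 0.30 (adjusted p = 0.0219) and Tgfb2 at 0.39 (adjusted p = 0.0245), and 3816 genes in all.

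**Figure D5:**
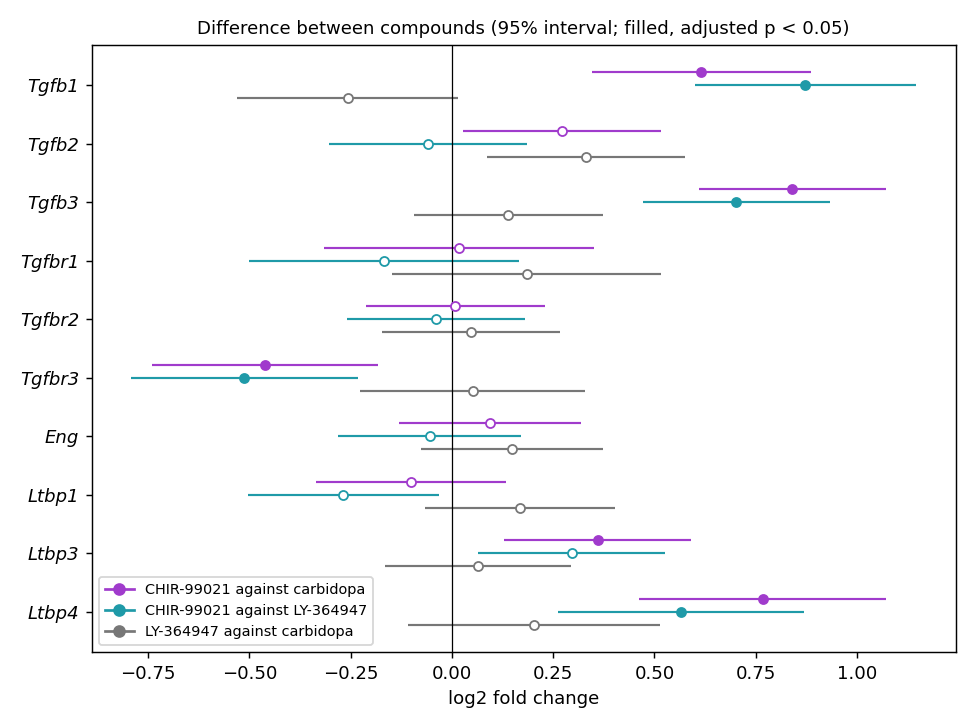
Log2 difference between compounds for the 10 genes with 95% intervals, in 1 colour per pair of compounds, with filled points for an adjusted p under 0.05. The differences of CHIR-99021 from carbidopa and LY-364947 lie to the right of 0 for Tgfb1, Tgfb3 and Ltbp4 and to the left for Tgfbr3, and those of LY-364947 from carbidopa lie between -0.26 and 0.33.

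Other genes of the pathway were followed in 5 lists. Of all genes tested, 37.7%, 31.0% and 38.8% were called against MEFs under carbidopa, LY-364947 and CHIR-99021, with medians of 0.04, 0.03 and 0.04. CHIR-99021 differed from carbidopa in 14.7% of all genes and from LY-364947 in 14.1%. Of 24 genes tested from a list on activation and storage of the latent complex (25 listed), 6 rose and 16 fell under carbidopa. With LY-364947 6 rose and 14 fell, and with CHIR-99021 5 rose and 16 fell. The medians were -0.58, -0.66 and -0.58. Ltbp2, an LTBP that does not bind TGF-beta, fell (log2 fold change -3.10, -2.78 and -0.74, adjusted p = 1.16e-07, 2.29e-07 and 0.00151). CHIR-99021 left it higher than carbidopa did by 2.36 (adjusted p = 7.63e-06) and higher than LY-364947 did by 2.04 (adjusted p = 1.92e-05). Thbs1, or thrombospondin 1, an activator of latent TGF-beta, fell (log2 fold change -2.64, -2.48 and -1.74, adjusted p = 4e-07, 6.67e-07 and 6.45e-06). Tgm2, the transglutaminase that fixes LTBPs to the matrix, rose by 2.07, 2.22 and 3.02 (adjusted p = 2.98e-07, 1.94e-07 and 2.89e-08). Mmp9, a protease able to cleave latent TGF-beta, rose by 4.66, 4.26 and 1.15 (adjusted p = 3.08e-07, 7.24e-07 and 0.0174). Its reads were few in MEFs (13 and 11) and under CHIR-99021 (40 and 24). They were 451 and 453 under carbidopa and 286 and 301 under LY-364947.

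Of 10 genes that bind ligand or act on its receptors at the surface or in the matrix, 2 rose and 6 fell under carbidopa. With each of the other compounds 2 rose and 7 fell. The medians were -1.76, -1.69 and -1.84. The 2 that rose with each compound were Bambi (log2 fold change 2.89, 2.78 and 3.36) and Nrp1 (0.68, 0.96 and 0.57). Some small proteoglycans were among those that fell. Another, Dcn (decorin), passed only under CHIR-99021 (log2 fold change 0.18, 0.11 and -0.65, adjusted p = 0.279, 0.554 and 0.00275). Aspn (asporin) was at 748 and 961 CPM in MEFs and at 0.330 to 6.38 CPM in treated libraries, a log2 fold change of -11.04, -10.39 and -7.37 (adjusted p = 2.78e-09, 3.34e-09 and 1.07e-08). Bgn (biglycan) fell (log2 fold change -4.54, -4.17 and -3.12, adjusted p = 5.88e-09, 9.84e-09 and 5.13e-08), and Fmod (fibromodulin) (log2 fold change -5.15, -4.95 and -6.84, adjusted p = 2.75e-08, 3.64e-08 and 2.07e-08). Cav1 (caveolin 1), a membrane protein of the endocytic route of TGF-beta receptors, fell (log2 fold change -3.51, -3.57 and -3.52, adjusted p = 2.09e-08, 1.9e-08 and 2.63e-08).

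Of 23 transducers and their regulators, 3 rose and 12 fell under carbidopa, 3 rose and 10 fell under LY-364947, and 4 rose and 8 fell under CHIR-99021, with medians of -0.38, -0.33 and -0.27. Smad3 (log2 fold change 0.64, 0.72 and 0.71, adjusted p = 0.00047, 0.000227 and 0.000234) and Smad6 (1.84, 1.98 and 1.49, adjusted p = 0.000146, 9.03e-05 and 0.000663) were among those that rose. Smad2 fell (log2 fold change -0.38, -0.36 and -0.34, adjusted p = 0.0117, 0.0172 and 0.0179). Smad4, the SMAD common to all branches, fell (log2 fold change -1.71, -1.47 and -1.09, adjusted p = 8.33e-07, 2.4e-06 and 1.83e-05). Nedd4l, a ubiquitin ligase of activated SMADs, fell (log2 fold change -1.41, -1.42 and -0.90, adjusted p = 7.37e-06, 7.34e-06 and 0.000165). Smad7, the inhibitory SMAD, fell (log2 fold change -2.08, -2.09 and -0.92, adjusted p = 2.46e-07, 2.48e-07 and 6.46e-05). Skil (SnoN), a SMAD co-repressor, fell under carbidopa and LY-364947 (log2 fold change -2.14 and -2.06, adjusted p = 2.36e-07 and 3.18e-07) and stood at 0.24 under CHIR-99021 (adjusted p = 0.0888). Against carbidopa Skil was higher under CHIR-99021 by 2.38 (adjusted p = 1.34e-06). In that comparison 7 of the 23 were higher and 0 lower, and 7 were higher and 1 lower against LY-364947, though only 3 passed against carbidopa when those 2 groups were fitted alone.

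Of 8 tested receptors for other ligands of the superfamily (10 listed), 0 rose and 6 fell under carbidopa, 1 rose and 6 fell under LY-364947, and 1 rose and 4 fell under CHIR-99021, with medians of -0.57, -0.44 and -0.46. Acvr2a, an activin type II receptor, fell (log2 fold change -1.56, -1.56 and -1.68, adjusted p = 2.17e-06, 2.29e-06 and 1.34e-06). Bmpr2, the BMP type II receptor, fell (log2 fold change -1.02, -0.66 and -0.53, adjusted p = 0.000554, 0.00827 and 0.0205). The type I receptors Bmpr1a (log2 fold change -0.54, -0.44 and -0.80, adjusted p = 0.00672, 0.0186 and 0.000546) and Acvrl1 (-0.68, -0.65 and -0.73, adjusted p = 0.00251, 0.0037 and 0.0017) fell in all 3 comparisons.

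Of 16 genes known to be induced by TGF-beta in fibroblasts, 1 rose and 15 fell under carbidopa and under LY-364947, and 2 rose and 13 fell under CHIR-99021, with medians of -2.03, -1.98 and -1.15. Smad7 and Skil belong to this list as well as to the transducers. Acta2, the smooth muscle actin of myofibroblasts, fell (log2 fold change -4.51, -4.32 and -4.17, adjusted p = 4.52e-08, 5.7e-08 and 6.48e-08), and Col1a2, a chain of type I collagen, (log2 fold change -1.98, -1.89 and -2.30, adjusted p = 1.58e-07, 2.18e-07 and 5.99e-08). Ccn2, or connective tissue growth factor, fell (log2 fold change -3.34, -3.63 and -1.15, adjusted p = 1.58e-07, 1.01e-07 and 0.000173). Tgfbi, a secreted matrix protein, fell (log2 fold change -1.59, -1.52 and -4.24, adjusted p = 6.17e-06, 8.87e-06 and 2.68e-08), and was lower under CHIR-99021 than under carbidopa (log2 difference -2.65, adjusted p = 6.41e-06). CHIR-99021 stood above carbidopa in 11 of the 16 genes and below in 2, and above LY-364947 in 10 and below in 4, with medians of 0.94 and 0.75. Tgfb1, Tgfb3 and Ltbp4 were likewise higher under CHIR-99021 in both comparisons. Tgfb2 was not called in either (log2 difference 0.27 against carbidopa and -0.06 against LY-364947). Between LY-364947 and carbidopa, Col1a1 passed the test, 1.54 higher under LY-364947 (adjusted p = 0.00204).

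The genes most like 1 member of each role were sought among 15153 genes by Pearson's r of log2 CPM over the 8 libraries, a description in which the shared difference between MEFs and treated libraries weighs heavily. For Tgfb2 these were Fam178a (0.998), Morc4 (0.997) and Rps6ka3 (0.996), and 374 genes (2.47%) had an r over 0.95. For Tgfbr1 they were Tcf7l1 (0.997), Mapre1 (0.996) and Ugcg (0.996), with 499 genes (3.29%) over 0.95. The gene most like Ltbp4 among all those tested was Tgfb3 (0.999), followed by Ptpra (0.997) and Thbs1 (0.995), with 348 genes (2.30%) over 0.95. The ratio of Tgfb3 to Ltbp4 per kilobase stayed between 6.32 and 8.03 in all 8 libraries.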

How the data were processed

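RNA-seq libraries represented control MEFs and MEFs given CHIR-99021, carbidopa or LY-364947, 2 per group. The labels name a SMARTER kit and the methods a NEBNext kit. The authors mapped reads to mm10 with STAR 2.4.2a and counted them per gene with featureCounts, and deposited the raw counts, whole numbers without normalization. The annotation release and strand setting are not given in the sources used here.

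Groups came from the sample labels. Counts were analysed in R 4.3.3 with edgeR 4.0.16 (TMM, filterByExpr, quasi-likelihood test on all 8 libraries together, modelling group alone), with Benjamini-Hochberg adjustment over 15154 genes and a threshold of 0.05. Reads carried no molecular identifiers, so counts are not independent molecules. The total was 15039566 to 20504338 counts per library. Replicate pairs differed by more than sampling noise, so none was counted once. Exon lengths and positions were taken from GENCODE M21 (GRCm38), and promoter windows from RefSeq (GRCm38.p6). Alternatives were DESeq2 1.42.0, RLE size factors, no filter, a minimum of 10 counts per library, fits restricted to the 2 groups compared, a replicate block and leaving out each library; scaling by total counts was added after the data had been seen. The fits were tested on simulated data.

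The members and gene lists were chosen with earlier results of these data known. The genes named were all members, up to 4 genes of each pathway list with the smallest adjusted p against MEFs, and the 3 genes most like the member of each role with the largest change. Col1a1, Col3a1, Fn1, Krt19, Dcn, Bambi, Nrp1, Smad2, Smad3 and Smad6 were named after their values had been seen.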

Additional observations from a re-analysis of the deposited data

How the results depend on the processing

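Of the 29 calls of members against MEFs, the directions held in every alternative, and the calls of Tgfbr3, Eng and Ltbp1 that were lost are given above. The number of members called, as single libraries were left out, was 8 to 10 under carbidopa, 8 to 10 under LY-364947, 8 to 9 under CHIR-99021, 1 to 6 for CHIR-99021 against carbidopa, 2 to 6 for CHIR-99021 against LY-364947 and 0 to 2 for LY-364947 against carbidopa. The lone library of a group was then assumed to vary like the other groups. Fitting only the 2 groups compared gave 3 members for CHIR-99021 against carbidopa. Counts over all genes moved most: CHIR-99021 against carbidopa had 2227 calls, 1027 with the 2 groups alone and 715 to 4632 with a library left out, CHIR-99021 against LY-364947 had 2143, 3673 and 663 to 4228, and LY-364947 against carbidopa had 2, 0 and 2 to 3816, with 15 by DESeq2 and 329 without a filter. Against MEFs, leaving out a library gave 3142 to 7996 calls under carbidopa, 2841 to 6519 under LY-364947 and 3433 to 7800 under CHIR-99021.

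Values whose sign turned were all uncalled. Scaling by total counts alone gave 0.11 for Tgfb1 (CHIR-99021 against MEFs), -0.017 for Tgfbr1 and -0.025 for Tgfbr2 (CHIR-99021 against carbidopa), and Tgfbr2 was -0.0017 by DESeq2 and -0.0025 with at least 10 counts in every library. With a library left out, the ranges were -0.22 to 0.035 for Ltbp1, -0.13 to 0.19 for Tgfbr1, -0.074 to 0.10 for Tgfbr2 (CHIR-99021 against carbidopa), -0.17 to 0.052 for Tgfb2 (CHIR-99021 against LY-364947), -0.25 to 0.045 for Tgfb1 (CHIR-99021 against MEFs) and -0.020 to 0.15 for Ltbp3, -0.040 to 0.14 for Tgfbr2, -0.12 to 0.24 for Tgfbr3 (LY-364947 against carbidopa). The causes were not tested. Computed from raw counts without gene length, 32 of the shares moved by more than their SD and 8 did not.

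The labels name no pairing of libraries between groups. The differences of replicate 1 from replicate 2 correlated between groups at -0.161 to 0.128, and 1 of 6 pairs of groups was over 0.1. This check cannot tell whether libraries were paired under other numbers. With the number as a replicate block, the count of members called was 10, 10 and 9 against MEFs, 4 and 4 for CHIR-99021 against carbidopa and LY-364947, and 0 for LY-364947 against carbidopa; Ltbp3 against carbidopa was not called (0.36, adjusted p = 0.068).

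Each group held 2 libraries, and every member had at least 144 reads in each library.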
